A study of Mus musculus with 12 samples.

Results

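The genes described here encode the proteins of the cytosolic ribosome in mouse peritoneal macrophages. They were chosen by symbol (Rpl or Rps followed by a number, Rplp0 to Rplp2, and Rpsa), without the S6 kinases and without symbols marked as pseudogenes, and were kept where, in 1 group or more, a probe was flagged well above background by each of the 4 arrays. Of 95 such symbols in RefSeq, 88 had a probe on the array and 86 were kept, out of 13176 genes tested. The Rpl10l and Rpl3l probes were not well above background on enough arrays, reaching at most 1 array for Rpl10l and 0 for Rpl3l. The 86 comprised 76 canonical ribosomal proteins, 31 of the small and 45 of the large subunit, and 10 paralogs, retrogenes or other genes that share the name (Rpl7l1, Rpl22l1, Rpl32l, Rpl36al, Rpl37rt, Rpl39l, Rps4l, Rps19bp1, Rps23rg1 and Rps27l).

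RNA came from adherent peritoneal macrophages of C57BL/6 mice, titled WT, that were kept overnight in serum-free medium before treatment. The control group received vehicle and carried the label of 8 weeks of age. The LPS_IFNg group received 100 ng/ml lipopolysaccharide (LPS, a bacterial outer membrane component) and 20 ng/ml interferon gamma (IFNg), a pair of stimuli used for classical activation of macrophages. The LPS_IFNg_emodin group received the same plus 50 µM emodin, a plant anthraquinone; both stimulated groups carried the label of 9 weeks. RNA was taken after 20 h, and each group had 4 samples that the series' design text calls biological replicates. All 8 stimulated samples and 2 controls were labelled female, and 2 controls male. The comparison of LPS_IFNg with control concerns classical activation, and that of LPS_IFNg_emodin with LPS_IFNg concerns the action of emodin during it.

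The ribosome is built from ribosomal RNA and a fixed set of proteins, and cells make these proteins in matched amounts from many dispersed genes. Messenger RNAs for ribosomal proteins start with a run of pyrimidines, the 5' terminal oligopyrimidine (TOP) motif, through which the kinase complex mTORC1 and the RNA-binding protein LARP1 control their translation and stability. In macrophages these messages are among the most abundant, and free ribosomal proteins such as RPL5 and RPL11 can bind the p53 inhibitor MDM2.

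Windows around annotated starts were searched for the pyrimidine run that defines this class of message. The sequences below are RefSeq windows of the GRCm38.p6 build, 5′ to 3′, from 20 bases before an annotated start, and capitals mark a run of 6 or more C or T that reaches within 5 bases of it. The first 8 are canonical genes with such a run, among them genes with large and with small changes below. The last 4 are genes without a run that reaches within 5 bases of the start. Rpl5 and Rps15 hold a run farther upstream, which is not marked.
Rps6 (chr4:86857358-86857387, minus strand): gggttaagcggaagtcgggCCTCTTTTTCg
Rpl28 (chr7:4792945-4792974, plus strand): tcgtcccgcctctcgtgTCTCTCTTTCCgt
Rpl35a (chr16:33056462-33056491, plus strand): gcgcggcggggcttgCCTTCCTCTTTCCgc
Rpl12 (chr2:32961692-32961721, plus strand): gcgtgggcggagcaggatccgTCTTTTCgg
Rps24 (chr14:24490658-24490687, plus strand): acgcccccgcgctggggTCCTTCCTTgcgc
Rplp2 (chr7:141447631-141447660, plus strand): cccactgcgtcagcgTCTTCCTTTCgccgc
Rps27 (chr3:90213639-90213668, minus strand): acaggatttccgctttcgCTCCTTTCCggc
Rpl38 (chr11:114668560-114668589, plus strand): ccggaagcggaagcctcgTTCTTTCCCCgt
Rpl24 (chr16:55966255-55966284, plus strand): taggaagaaagctgttgctaggaaacagac
Rpl5 (chr5:107900508-107900537, plus strand): ctctttctcacgtcgcttgcgtgctggtgg
Rps15 (chr10:80292411-80292440, plus strand): gccctcccggcagagctcgcgataactgcg
Rpl7l1 (chr17:46782647-46782676, minus strand): gcccggtgaggctgcgcaagcgcagtagct

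RefSeq promoter windows were matched for 56 of the 76 canonical genes, with 66 windows because some genes have several annotated starts. A pyrimidine run lay at the start in 45.5% of these 66 windows, against 20.2% of all 32851 windows in the table and 24% of the 75 windows of mitochondrial ribosomal protein genes. Over the 250 bases before and 50 after the start, the letters CCGGAAG on either strand, the core of the site for the factor GABP, were present in 36.4% of canonical windows, 34.7% of mitochondrial ribosomal windows and 8.86% of all windows. The YY1 letters AAGATGGC were in 10.6% of canonical windows, 16% of mitochondrial ribosomal windows and 2.75% of all windows. In the same order the GC box GGGCGG was in 60.6%, 52% and 35.7%, and the E-box CACGTG in 12.1%, 9.33% and 7.15%. TATAAA was in 9.09%, 6.67% and 13.6%. The pyrimidine run therefore separated cytosolic from mitochondrial ribosomal genes by a wider margin than the GABP letters did, as a description of these windows with no test. Annotated starts can lie several bases from the start used in these cells.

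Each array gave between 45.5% and 50.8% of its probes well above background on at least 1 spot. The 8 stimulated arrays lay on 1 slide and the 4 controls on another. Slide, labelled age and group therefore cannot be told apart in a comparison with control. On the slide of the stimulated arrays, all emodin arrays lay in row 1 and all LPS_IFNg arrays in row 2. Row and emodin therefore cannot be told apart in the comparison of these groups. Sex-linked transcripts went against the sex label on 4 arrays (replicate 3 of LPS_IFNg, replicate 3 of LPS_IFNg_emodin, and replicates 3 and 4 of the control), and counts without these arrays are given beside each comparison. All 9 macrophage markers on the array (such as Adgre1, Csf1r and Lyz2) were well above background on every control and every LPS_IFNg array, and all but Timd4 were on every emodin array. The design text names blood granulocytes, whereas the samples are labelled peritoneal macrophage. Of the 11 neutrophil markers on the array, 7 were well above background on every control array, 5 on every LPS_IFNg array and 6 on every emodin array, and 1 (Ngp) on none of the 12; Elane, Camp, Csf3r, S100a8 and Mmp8 were detected on all 12, and Retnlg and Cxcr2 on no stimulated array.

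Levels below are log2 signals relative to the 75th percentile of the same array, so they describe a gene's place within its array. The mean level of the 76 canonical genes was 8.39, 8.57, 8.39 and 8.22 on the control arrays, 8.30, 8.03, 8.01 and 8.16 on the LPS_IFNg arrays, and 8.99, 8.92, 8.96 and 8.91 on the emodin arrays. The emodin arrays were all above the other 8, while control replicate 4 lay below LPS_IFNg replicate 1. Relative to the RNA spike-in controls, the means were 4.50, 4.49, 4.33 and 4.62 with LPS_IFNg and 4.49, 4.71, 4.54 and 4.71 with emodin added, and these groups overlapped.

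**Figure D1:**
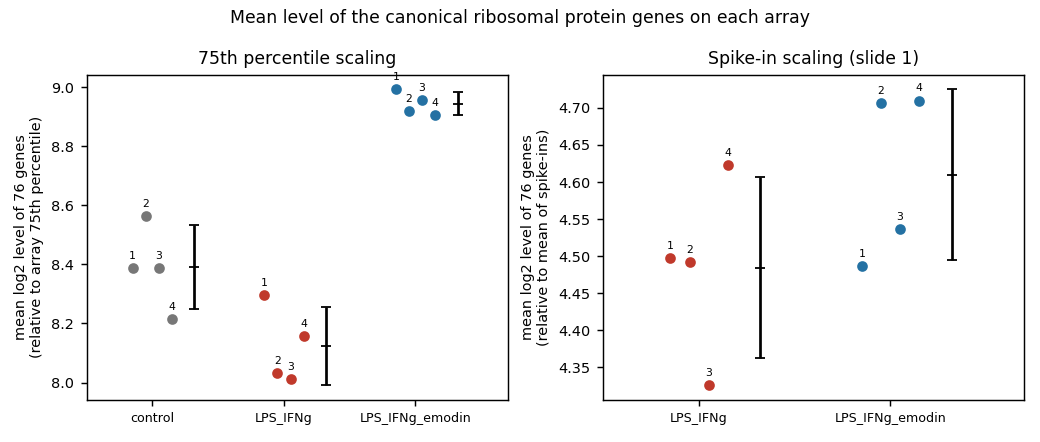
Mean log2 level of the 76 canonical ribosomal protein genes on each array, relative to the array's 75th percentile (left, 12 arrays) or to the mean of the spike-ins (right, the 8 arrays of 1 slide); points are arrays numbered by replicate, and bars are the mean ± SD of 4 arrays. On the left the 4 emodin arrays lie between 8.91 and 8.99, above every other array, and on the right both groups overlap between 4.49 and 4.62.

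With emodin added to LPS and IFNg, ribosomal protein messages took a larger place in the measured RNA. Under 75th percentile scaling all 76 canonical genes rose, by 0.42 to 1.32 with a median of 0.82, and the 4 emodin arrays did not overlap the 4 LPS_IFNg arrays for 75 of them. Over all genes tested 72.2% were called, 36.6% rising and 35.6% falling, 67.7% did not overlap, and the median change was 0.02. Of all 86 genes 82 rose, 1 fell (Rps4l) and 3 were not called (Rpl7l1, Rpl39l and Rps19bp1), with a median of 0.80. Without the 4 arrays that go against their sex label 81 rose and 1 fell.

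Relative to the spike-ins fewer of these genes were called. The spike-in signal differed by -0.09 ± 0.06 (SE) between these groups (exact permutation test, two-sided, p = 0.2), while the unscaled signal of the median gene was lower with emodin by -0.89 ± 0.10 (exact p = 0.0286, the smallest that 4 against 4 arrays can give). On the spike-in scale 13 of the 76 canonical genes rose and 0 fell, with a median of 0.12 and a range of -0.27 to 0.63, and 13 did not overlap. Of all genes tested 9.28% rose and 65.5% fell on that scale (74.8% called either way), 68% did not overlap and the median was -0.67. Of all 86 genes 14 rose and 4 fell (Rps4l, Rps19bp1, Rpl7l1 and Rpl36al) on that scale. The canonical genes therefore stood above the median gene by the same distance under both scalings, since each of these shifts every gene of an array alike. The choice between them decides whether this reads as a rise of ribosomal protein messages or as a lower signal of other genes. Over the 86 genes the distance between the medians was 0.78 under both. It was 0.40 after quantile scaling, which does not shift all genes alike, and 0.40 in the authors' deposited value table. Quantile scaling gave 66 of the 86 rising and 2 falling, beside 4386 and 5107 of all genes. The value table also gave 66 and 2, beside 4353 and 5105. The cause of the lower signal relative to the spike-ins was not tested. Cell number, RNA per cell and array row, among others, cannot be told apart in these bulk samples.

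The replicate numbers paired the arrays of this comparison (correlations of same-numbered deviations of 0.15 to 0.28). With the number as a block on the spike-in scale, 27 of the 86 genes rose and 6 fell. Of all 13176 genes 1523 rose and 9203 fell in that fit. Without replicate 3 of both groups, 5 of the 86 rose and 3 fell on that scale, beside 1060 and 8010 of all genes. The number of calls there depended on those arrays, and nothing is read from the 5 rises. Markers of other cells also differed between these groups, and the summed level of a list (signal relative to the 75th percentile, not log2) is set by its brightest members, so counts of single genes are given with it.

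For the 12 mesothelial and fibroblast markers the sum was 17.4 to 75.5 in control, 69.7 to 135 with LPS_IFNg and 10.9 to 35.6 with emodin. Of the 11 tested, 3 rose and 5 fell with LPS_IFNg (median log2 change -0.95), and 0 rose and 6 fell with emodin against LPS_IFNg (median -1.54; 0 and 9 on the spike-in scale). On every array of the group, 11, 9 and 6 of the 12 were well above background in the same order, and Upk3b was so on no stimulated array. The neutrophil sum was 92.9 to 111, 94.8 to 105 and 106 to 171, and of 8 tested 2 rose and 4 fell with LPS_IFNg and 6 rose and 2 fell with emodin (median 1.23; 4 and 2 on the spike-in scale).

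The sum of the B, T and NK cell markers was 8.36 to 9.21, 5.47 to 8.34 and 5.39 to 6.18. Of 6 tested, 1 rose and 1 fell with LPS_IFNg, and 1 rose and 4 fell with emodin against LPS_IFNg (median -2.05; 0 and 5 on the spike-in scale). On every array of the group 5, 5 and 2 of these 12 markers were detected. Of the T cell genes, Cd3e and Cd4 were detected on all 12 arrays and Cd8a on none. Cd3d and Cd3g were each detected on 1 LPS_IFNg array and on no control or emodin array. The macrophage sum was 522 to 536, 347 to 407 and 427 to 497, higher with emodin than with LPS_IFNg, whereas of the 9 single markers 2 rose and 7 fell in that comparison (median -1.10; 0 and 7 on the spike-in scale, median -1.79). With LPS_IFNg against control 4 of the 9 rose and 5 fell (median -0.67). The mast cell and eosinophil sum was 1.35 to 2.11, 0.664 to 1.31 and 0.788 to 1.62, with 1 of 4 tested rising and 0 falling with emodin against LPS_IFNg. Siglecf of that list was detected on all 12 arrays and Prg2 and Epx on none. The erythroid and platelet sum was 74.9 to 152, 54.8 to 73.1 and 56.9 to 97.8. Of its 7 markers, platelet Pf4 was detected on all 12 arrays. The other platelet genes Ppbp and Itga2b, and the erythroid Alas2, were detected on none. The part of these cells in the result was not tested.

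Rpl3 and Rpl10a, which encode proteins of the large subunit core and of its L1 stalk, had the largest canonical changes. The Rpl3 level was 7.87, 7.86, 7.76 and 7.54 in control, 7.30, 6.80, 6.48 and 6.96 with LPS_IFNg and 8.24, 8.19, 8.23 and 8.16 with emodin. Every emodin array was above every control array, which in turn was above every LPS_IFNg array. Emodin against LPS_IFNg gave a log2 change of 1.32 ± 0.14 (SE; 2.5-fold, adjusted p = 5.86e-06) and 0.63 ± 0.15 on the spike-in scale (adjusted p = 0.00182). For Rpl10a the levels were 8.81, 8.90, 8.82 and 8.51 in control, 8.15, 7.63, 7.29 and 7.92 with LPS_IFNg and 9.16, 8.92, 8.93 and 9.07 with emodin, and the change was 1.27 ± 0.16 (2.41-fold, adjusted p = 2.1e-05; spike-in scale 0.57 ± 0.17, adjusted p = 0.00697). LPS_IFNg replicate 3 had the lowest level of both genes.

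Rpl31, Rpl35a and Rpl28, 3 further large subunit genes, rose by 1.15, 1.10 and 1.08 with emodin, and by 0.46, 0.41 and 0.39 on the spike-in scale, where each was also called (adjusted p = 0.00648, 0.0152 and 0.0156). The Rpl28 level was 7.14, 7.34, 7.24 and 7.10 in control, 6.85, 6.75, 6.68 and 6.83 with LPS_IFNg and 7.91, 7.66, 7.92 and 7.95 with emodin. The emodin arrays were above all others, and LPS_IFNg arrays below all controls. At the other end of the canonical genes, Rpl24 rose by 0.42 ± 0.11 (adjusted p = 0.00453) and had -0.27 ± 0.12 on the spike-in scale (adjusted p = 0.0593, not called).

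**Figure D2:**
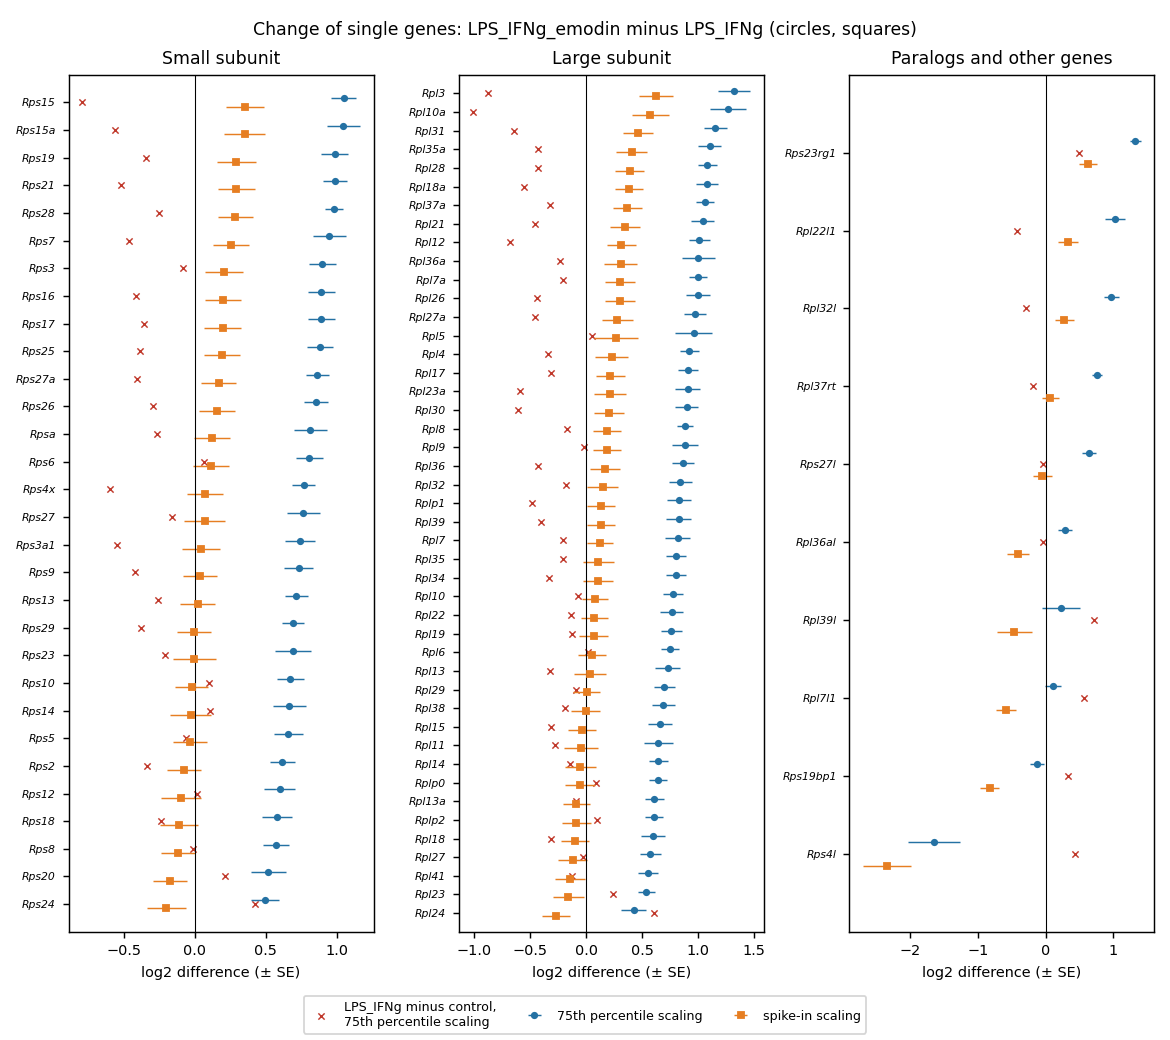
Log2 difference of single ribosomal protein genes between LPS_IFNg_emodin and LPS_IFNg under 75th percentile (circles) and spike-in scaling (squares), with SE from 4 arrays a group, beside the LPS_IFNg minus control difference (crosses). The canonical circles lie between 0.42 and 1.32, while the squares lie between -0.27 and 0.63, and Rps4l is far to the left on both scales.

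In LPS_IFNg samples more ribosomal protein genes were lower than higher relative to control. Of the 76 canonical genes 42 fell and 3 rose (Rpl23, Rpl24 and Rps24) against control, with a median of -0.29, and 34 did not overlap. Over all genes tested 69.1% were called, 35.5% falling and 33.6% rising, and 64.4% did not overlap, with a median of -0.04. Of all 86 genes 45 fell and 7 rose; without the 4 arrays that go against their sex label 44 fell and 5 rose. This comparison shares the LPS_IFNg arrays with the emodin comparison above, so the values of both are given side by side and their likeness is not read as a result.

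Among genes whose groups did not overlap, the 6 largest falls were of Rpl10a (-1.01 ± 0.16, 0.496 of the control signal, adjusted p = 0.000143), Rpl3 (-0.87), Rps15 (-0.79), Rpl12 (-0.68), Rpl31 (-0.65) and Rpl30 (-0.60). Rps15 encodes a small subunit protein needed for export of the pre-ribosome, and Rpl12 a protein at the base of the factor-binding stalk. The Rps15 level was 7.69, 7.84, 7.72 and 7.58 in control, 7.15, 6.79, 6.76 and 6.96 with LPS_IFNg and 7.96, 7.90, 7.95 and 8.04 with emodin (LPS_IFNg against control -0.79 ± 0.09, adjusted p = 9.11e-06). That of Rpl12 was 8.70, 8.81, 8.72 and 8.48, 8.21, 7.88, 7.85 and 8.07 and 8.99, 9.02, 9.05 and 8.98 in the same order (-0.68 ± 0.09, adjusted p = 4.31e-05). For both genes the LPS_IFNg arrays were below all others and the emodin arrays above all controls.

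The canonical gene with the largest rise was Rpl24, which encodes a protein at the interface of the subunits. Its level was 8.69, 8.82, 8.59 and 8.44 in control, 9.45, 9.16, 9.13 and 9.24 with LPS_IFNg and 9.93, 9.58, 9.57 and 9.61 with emodin, so the groups were ordered without overlap. LPS_IFNg against control gave 0.61 ± 0.11 (adjusted p = 0.0004), and its other probe gave 0.28. Rps24, a small subunit gene mutated in Diamond-Blackfan anaemia, had 8.71, 8.97, 8.57 and 8.66, 9.27, 9.02, 9.10 and 9.21 and 9.61, 9.72, 9.74 and 9.50 (0.42 ± 0.10, adjusted p = 0.0021), but its dimmer probes gave 0.14 and 0.01. Rpl23 rose on its brightest probe only (0.24), and its other probes gave -0.15 and -0.29. Of 51 genes measured by several probes, 9 had probes that differed in sign in this comparison, 0 in the comparison of emodin with LPS_IFNg and 4 in that of emodin with control.

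Between LPS_IFNg_emodin and control the direction depended on how arrays were scaled. Under 75th percentile scaling 73 of the 76 canonical genes rose and 0 fell (median 0.55), 71 did not overlap, and of all 86 genes 80 rose and 1 fell, beside 39.8% and 38.2% of all genes (78% called either way) and 72.5% without overlap. After quantile scaling 7 of the 86 rose and 27 fell (median -0.09), and the authors' deposited value table gave 7 and 29 (median -0.10). The share of all genes that rose shifted far less, with 5241 rising and 5030 falling under the 75th percentile and 4385 and 5812 after quantile scaling. Without the 4 arrays that go against their sex label, 66 rose and 1 fell under the 75th percentile.

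Among genes whose groups did not overlap, the 6 largest rises were of Rps23rg1 (1.82), Rpl24 (1.03 ± 0.11, adjusted p = 3.23e-06), Rpl5 (1.02), Rps24 (0.92), Rps6 (0.87) and Rpl9 (0.86). Rpl39l, whose groups overlapped, had 0.94 (adjusted p = 0.00834). Rpl24, Rps24 and Rpl5 kept a positive change under every scaling tried, down to 0.35, 0.24 and 0.37. Rpl10a, Rps3a1 and Rps4x were the canonical genes not called, with 0.26, 0.19 and 0.17.

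The stalk proteins recruit translation factors to the large subunit. Rplp0 had levels of 9.06, 9.38, 9.17 and 9.12 in control, 9.40, 9.18, 9.19 and 9.30 with LPS_IFNg and 9.91, 9.91, 9.90 and 9.91 with emodin, and Rplp2 9.04, 9.09, 8.99 and 9.06, 9.11, 9.19, 9.15 and 9.12 and 9.71, 9.86, 9.90 and 9.52. For neither gene was LPS_IFNg called against control (0.08 and 0.10, adjusted p = 0.357 and 0.298). Other probes of Rplp0 gave 0.04 and 0.89 in that comparison. Rplp1, whose product pairs with that of Rplp2, had 8.83, 8.99, 8.85 and 8.58, 8.58, 8.18, 8.20 and 8.36 and 9.26, 9.09, 9.13 and 9.15 and fell by 0.48 with LPS_IFNg (adjusted p = 0.00153). With emodin against LPS_IFNg Rplp0, Rplp1 and Rplp2 rose by 0.64, 0.83 and 0.61, and none was called on the spike-in scale (-0.05, 0.13 and -0.09).

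Among 31 small subunit genes 18 fell and 1 rose with LPS_IFNg, beside 35.5% and 33.6% of all genes. All 31 rose with emodin against LPS_IFNg (median 0.77), beside 36.6% of all genes. On the spike-in scale 4 rose, among them Rps15, Rps15a and Rps28, beside 9.28% of all genes. Rps6, whose product is the substrate of the S6 kinases, had levels of 8.21, 8.32, 8.14 and 7.94 in control, 8.41, 8.18, 8.07 and 8.20 with LPS_IFNg and 9.10, 8.99, 8.96 and 9.04 with emodin. Only the emodin arrays stood apart, with 0.81 ± 0.09 against LPS_IFNg (adjusted p = 9.84e-06) and 0.87 ± 0.09 against control. Rps3, at the messenger RNA entry channel, and Rps14, at the platform, were not called with LPS_IFNg (-0.09 and 0.11). They rose by 0.90 and 0.66 with emodin. A dimmer probe of Rps3 gave -1.20 with LPS_IFNg and 0.87 with emodin against LPS_IFNg. Rps19, Rps26 and Rps27a, the first 2 mutated in Diamond-Blackfan anaemia and the last a fusion with ubiquitin, fell by 0.34, 0.30 and 0.41 with LPS_IFNg and rose by 0.99, 0.85 and 0.86 with emodin. Rps25, which some viral RNAs need for translation, fell by 0.38 and rose by 0.88. Rpsa, the laminin receptor precursor, had -0.26 (adjusted p = 0.0561) with LPS_IFNg and rose by 0.81 with emodin. Its other probes gave -0.78, -0.64 and -0.03 with LPS_IFNg. Rps27, a small subunit gene with a zinc finger product, was not called with LPS_IFNg (-0.16) and rose by 0.76 with emodin. Its other probes gave -0.34, -0.37 and -0.56 with LPS_IFNg.

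Among 45 large subunit genes 24 fell and 2 rose with LPS_IFNg, beside 35.5% and 33.6% of all genes. All 45 rose with emodin against LPS_IFNg (median 0.83), beside 36.6% of all genes. On the spike-in scale 9 rose, beside 9.28% of all genes. Rpl5 and Rpl11 encode the proteins that join 5S ribosomal RNA and that bind MDM2. The Rpl5 level was 6.52, 7.19, 6.56 and 6.51 in control, 7.06, 6.81, 6.37 and 6.77 with LPS_IFNg and 7.69, 7.75, 7.63 and 7.79 with emodin, and that of Rpl11 was 8.92, 9.36, 9.31 and 8.84, 9.07, 8.65, 8.74 and 8.85 and 9.61, 9.41, 9.52 and 9.35. Neither was called with LPS_IFNg (0.06 and -0.28), and both rose with emodin against LPS_IFNg (0.96 ± 0.17 and 0.65 ± 0.13, adjusted p = 0.000245 and 0.000903). Control replicate 2 was the highest control array for both genes. Mdm2, the p53 inhibitor, and Cdkn1a, a p53 target, rose with LPS_IFNg by 2.40 and 2.49, and Trp53 itself fell by 0.90. Of the 8 genes listed for nucleolar stress and p53, which include Rpl5, Rpl11, Rpl23 and Rps27l, 4 rose and 1 fell with LPS_IFNg, 6 rose and 1 fell with emodin against LPS_IFNg, and 0 rose and 2 fell on the spike-in scale, beside 33.6% and 35.5%, 36.6% and 35.6%, and 9.28% and 65.5% of all genes.

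Rpl13a, whose product is known for silencing inflammatory messages after IFNg, had levels of 8.15, 8.23, 8.09 and 7.91 in control, 8.17, 7.88, 7.95 and 8.02 with LPS_IFNg and 8.65, 8.52, 8.64 and 8.64 with emodin. LPS_IFNg was not called against control (-0.09 ± 0.08, adjusted p = 0.374), and emodin rose by 0.61 ± 0.08 over LPS_IFNg, with -0.09 on the spike-in scale. Rpl38 is known for its part in translating Hox messages, and Rpl10 encodes a late-joining protein of the tRNA channel. Neither was called with LPS_IFNg (-0.19 and -0.08), and both rose with emodin (0.69 and 0.78). The other probes of Rpl10 gave 0.41 and 0.41 with LPS_IFNg. Rpl26, which binds Trp53 messenger RNA, fell by 0.44 with LPS_IFNg and rose by 1.00 with emodin.

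The canonical genes moved within a narrow band. The SD of the log2 change across the 76 genes was 0.28 for LPS_IFNg against control, 0.19 for emodin against LPS_IFNg and 0.19 for emodin against control, against 1.37, 1.19 and 1.54 over all genes. All 76 were among the 1318 brightest genes, and the spread of equally bright genes was not computed. A change of 2-fold or more was seen for 1, 13 and 2 of the 76, against 26.5%, 26.8% and 38.7% of all genes. Some genes still left the band. On a scale where each array's mean of the 76 genes was set to 0, which removes any array scaling, 18 canonical genes lay above and 17 below in LPS_IFNg against control (43.6% and 21.6% of all genes), 14 and 12 in emodin against LPS_IFNg (7.98% and 73.1%), and 10 and 14 in emodin against control (20.4% and 57.8%).

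On that scale Rpl24 was 0.87 ± 0.08 (adjusted p = 1.61e-06) with LPS_IFNg against control, -0.40 ± 0.08 (adjusted p = 0.000835) with emodin against LPS_IFNg, and 0.48 ± 0.08 (adjusted p = 0.000197) with emodin against control. Rpl10a was -0.75 ± 0.12, 0.45 ± 0.12 and -0.30 ± 0.12 in the same order, and Rpl3 was -0.61 ± 0.11 and 0.50 ± 0.11 in the first pair. Rpl24 thus stood above the other ribosomal protein genes in both stimulated groups relative to control, and Rpl10a below them. Rps4x, the X-linked form of a small subunit protein, and Rps3a1 lay lowest among canonical genes in emodin against control (-0.38 ± 0.07 and -0.36 ± 0.08), and Rpl5 lay above (0.46 ± 0.13, adjusted p = 0.00488).

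**Figure D3:**
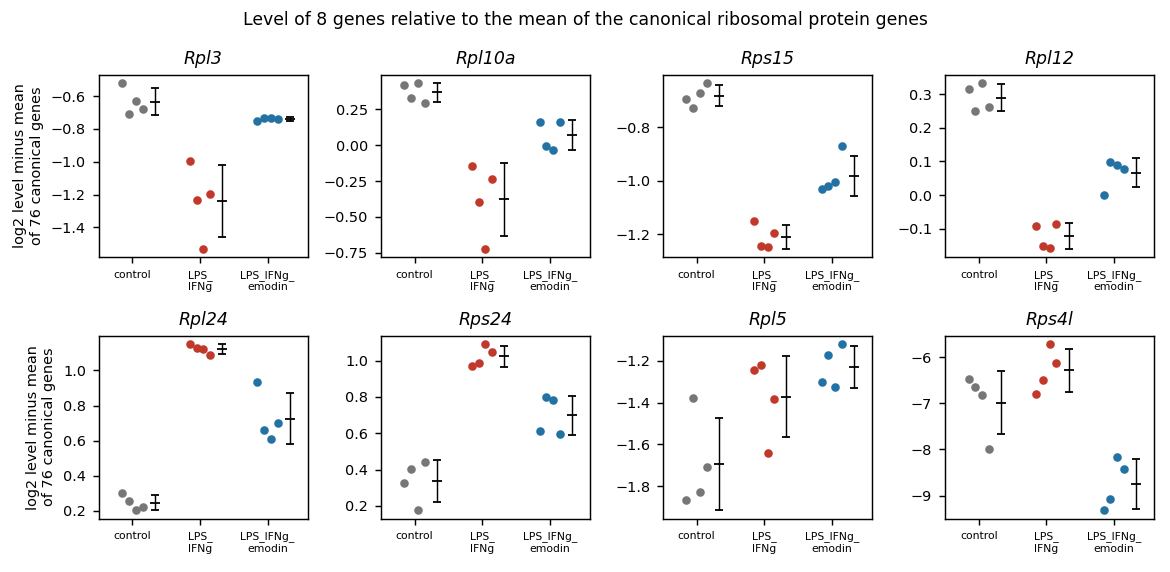
Log2 level of 8 genes minus the mean of the 76 canonical genes on the same array; points are the 4 arrays of each group and bars the mean ± SD, with a separate vertical scale for each gene. Rpl3, Rpl10a, Rps15 and Rpl12 are lowest on the LPS_IFNg arrays, Rpl24 and Rps24 highest there, and Rps4l lowest on the emodin arrays.

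The 10 paralogs, retrogenes and other genes of the name had rises and falls. Of these 10 genes 4 rose and 3 fell with LPS_IFNg (33.6% and 35.5% of all genes), 6 rose and 1 fell with emodin against LPS_IFNg (36.6% and 35.6%), and on the spike-in scale 1 rose and 4 fell (9.28% and 65.5%), and nothing is read from counts over so few genes. Rps23rg1, a retrogene derived from Rps23, had levels of 0.19, 0.44, 0.30 and 0.18 in control, 0.71, 0.78, 0.77 and 0.84 with LPS_IFNg and 2.10, 2.04, 2.25 and 2.01 with emodin. The groups were ordered without overlap, with 0.50 ± 0.08 for LPS_IFNg against control (adjusted p = 0.000128) and 1.32 ± 0.08 for emodin against LPS_IFNg (adjusted p = 3.7e-08; spike-in scale 0.63 ± 0.13, adjusted p = 0.000719). Rps4l, a paralog of Rps4x, had 1.92, 1.91, 1.58 and 0.22, 1.51, 1.53, 2.29 and 2.04 and -0.33, -0.15, 0.78 and 0.47 in the same order and fell with emodin by 1.65 ± 0.38 (adjusted p = 0.00196; spike-in scale -2.34 ± 0.35). Control replicate 4 was the lowest control array for Rps4l.

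Rpl7l1, a nucleolar paralog of Rpl7, had 0.75, 0.83, 0.44 and 0.27 in control, 1.32, 1.08, 1.07 and 1.08 with LPS_IFNg and 1.10, 1.30, 1.32 and 1.28 with emodin. It rose with LPS_IFNg by 0.56 ± 0.12 (adjusted p = 0.00139) and was not called with emodin against LPS_IFNg (0.11 ± 0.12, adjusted p = 0.435). Rps19bp1, which encodes a binding partner of RPS19 and regulator of SIRT1 and is no ribosomal protein, rose with LPS_IFNg by 0.33 and had -0.13 with emodin (adjusted p = 0.271). Rpl39l, best known from testis, rose by 0.71 ± 0.28 with LPS_IFNg (adjusted p = 0.0395), a call lost without any 1 of 5 arrays (adjusted p up to 0.1). Rpl22l1 and Rps27l, the latter a p53 target, had -0.42 and -0.04 with LPS_IFNg and rose by 1.03 and 0.65 with emodin; the fall of Rpl22l1 (adjusted p = 0.0267) was also lost without any 1 of 5 arrays (adjusted p up to 0.0823). Rpl36al rose with emodin by 0.29 ± 0.11 (adjusted p = 0.0337) but not without any 1 of 5 arrays (adjusted p up to 0.0873), and on the spike-in scale it fell, with -0.41 ± 0.16.

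The log2 ratio of paralog to canonical signal within an array is free of scaling; its level depends on the probes, so only its differences between groups are read. Rpl7l1 over Rpl7 was 0.77 ± 0.08 (SE) higher with LPS_IFNg than in control and -0.71 ± 0.14 with emodin relative to LPS_IFNg, without overlap in either comparison. Rpl39l over Rpl39 was 1.12 ± 0.26 higher with LPS_IFNg, and Rps4l over Rps4x 1.03 ± 0.40 higher, while emodin relative to LPS_IFNg gave -2.41 ± 0.33 for Rps4l over Rps4x and -0.71 ± 0.11 for Rpl36al over Rpl36a. Each of these 6 differences, and that of Rpl36al over Rpl36a between emodin and control (-0.52 ± 0.12), had an exact permutation p of 0.0286, two-sided, the smallest that 4 against 4 arrays can give, and an adjusted p of 0.0735 over 18 tests, so none passed the correction. Rps27l over Rps27 and Rpl22l1 over Rpl22 overlapped between the groups of all 3 comparisons. With same-numbered arrays of emodin and LPS_IFNg paired, a choice made after seeing the data, all 4 differences had 1 sign for each of the 6 ratios. They were -0.69 to -0.46 for Rpl39l over Rpl39 (mean -0.59 ± 0.05, SE over 4 pairs), -0.20 to -0.05 for Rps27l over Rps27 (-0.12 ± 0.03), 0.02 to 0.48 for Rpl22l1 over Rpl22 (0.26 ± 0.10) and -2.50 to -2.33 for Rps4l over Rps4x (-2.41 ± 0.05). An exact sign-flip test over 4 pairs gave p = 0.125, two-sided, for each ratio, the smallest it allows. Near-identical copies and processed pseudogenes of ribosomal protein genes can share a probe's target, and the part of such cross-hybridisation was not tested.

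**Figure D4:**
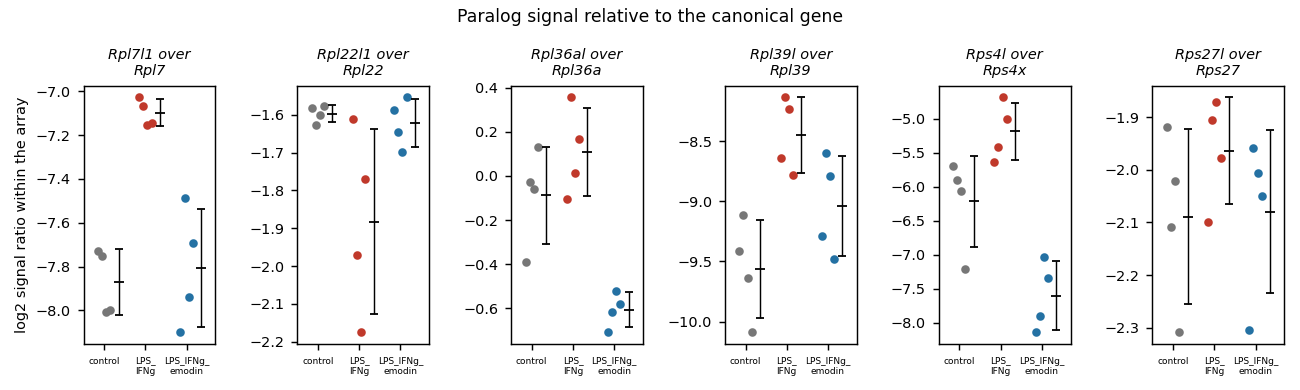
Log2 ratio of paralog to canonical signal on each array for 6 pairs; points are the 4 arrays of each group, bars the mean ± SD, and each pair has its own vertical scale. Rpl7l1 over Rpl7 is highest on the LPS_IFNg arrays, and Rpl36al over Rpl36a and the mean of Rps4l over Rps4x are lowest with emodin.

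Other genes of the translation machinery that carry TOP motifs, such as elongation factors, were set beside the ribosomal protein genes. For every list below, the shares of all genes that rose and fell were 33.6% and 35.5% with LPS_IFNg, 36.6% and 35.6% with emodin against LPS_IFNg, and 9.28% and 65.5% on the spike-in scale, with medians of -0.04, 0.02 and -0.67. Of 23 such genes 22 rose and 0 fell with emodin against LPS_IFNg (median 0.74). On the spike-in scale 6 rose and 2 fell (median 0.04), and with LPS_IFNg 7 rose and 6 fell. The list holds Fau, itself a gene of the ribosome, whose own changes with emodin are these medians on both scales. The list is therefore not wholly apart from the ribosomal genes. Eif2s3x, Eif4b, Eif3f and Naca, 3 initiation factor genes and a nascent chain binding protein, rose with emodin by 2.57, 1.5, 1.24 and 1.21. Fau and Rack1, which encode ribosomal components outside the symbol rule, rose by 0.74 and 0.66, and neither was called with LPS_IFNg or on the spike-in scale. Pabpc1, the poly(A) binding protein, rose with LPS_IFNg by 0.92 and Eif3e fell by 0.61.

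Of 26 ribosome biogenesis factors 4 rose and 11 fell with emodin against LPS_IFNg (median -0.22), and 0 rose and 22 fell on the spike-in scale (median -0.92), beside 35.6% and 65.5% of all genes falling. Polr1b, a subunit of RNA polymerase I, and the processing factors Wdr12, Rrp12 and Pes1 fell by 1.47, 1.44, 1.42 and 1.16. With LPS_IFNg 1 of the 26 rose, Ubtf, the ribosomal DNA transcription factor (1.72), and 6 fell, among them Dkc1 (-1.13). The 77 mitochondrial ribosomal protein genes, which build a separate ribosome, had 19 rising and 30 falling with emodin against LPS_IFNg (median -0.13), 1 and 66 on the spike-in scale (median -0.83), and 16 and 24 with LPS_IFNg (median -0.11). The share of these genes that fell with emodin was near that of all genes under 75th percentile scaling. The share that rose was below the 36.6% of all genes, and the share that fell on the spike-in scale was above 65.5%.

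**Figure D5:**
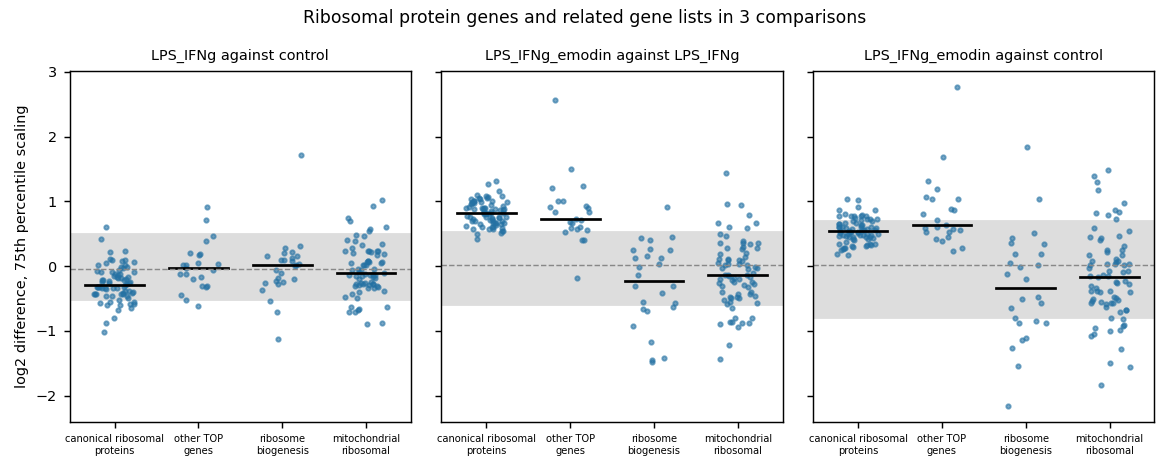
Log2 differences under 75th percentile scaling for the 76 canonical ribosomal protein genes, 23 other TOP genes, 26 biogenesis genes and 77 mitochondrial ribosomal protein genes; points are genes, black lines list medians, the grey band the interquartile range of all 13176 genes and the dashed line their median. In emodin against LPS_IFNg the medians are 0.82 and 0.74 for the canonical and TOP genes and -0.22 and -0.13 for the others.

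Among 10 factors that bind ribosomal protein promoters, Myc, a driver of ribosome production, fell with LPS_IFNg by 1.97 ± 0.18 (adjusted p = 1.06e-06) and rose with emodin against LPS_IFNg by 3.21 ± 0.18 (adjusted p = 2.3e-08; 2.51 on the spike-in scale). Yy1, whose letters were counted above, rose with LPS_IFNg by 0.74 and with emodin against LPS_IFNg by 0.49. On the spike-in scale Yy1 was not called (-0.21, adjusted p = 0.149). In all 3 of the 10 rose and 3 fell with LPS_IFNg, 5 rose and 2 fell with emodin, and 2 rose and 7 fell on the spike-in scale. These counts, and those of the lists that follow, are near the shares of all genes given above or rest on few genes, and nothing is read from them. Of 19 mTORC1 and TOP regulators 6 rose and 6 fell with LPS_IFNg, 8 rose and 4 fell with emodin, and 0 rose and 14 fell on the spike-in scale. Deptor, an mTOR inhibitor, fell by 4.12 with LPS_IFNg and by a further 2.32 with emodin, and Larp1 rose by 1.52 with LPS_IFNg. Of 12 chaperones and importers of ribosomal proteins 2 rose and 3 fell with LPS_IFNg, 6 rose and 2 fell with emodin, and 3 rose and 6 fell on the spike-in scale. The importins Ipo7, Ipo5 and Tnpo1 rose with emodin by 1.29, 1.17 and 1.12, and Tsr2, a carrier of RPS26, fell with LPS_IFNg by 1.47.

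Ribosomal protein probes were bright. All 76 canonical genes belonged to the 1318 brightest genes (the top decile), and none of their chosen probes was saturated on any array. The other 1237 genes of that decile had a median change of 0.17 with emodin against LPS_IFNg (-0.53 on the spike-in scale), of 0.21 with LPS_IFNg against control and of 0.47 with emodin against control. The canonical medians in the same order were 0.82 (0.12 on the spike-in scale), -0.29 and 0.55. Across the 76 genes the mean level correlated with the change at r = -0.51 for emodin against LPS_IFNg, 0.51 for LPS_IFNg against control and 0.25 for emodin against control, as a description across genes that share arrays.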

How the data were processed

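RNA from 12 samples in 3 groups was labelled with Cy3 and hybridised to one-colour arrays. Per the submitters' processing notes, version 10.7.3.1 of Agilent Feature Extraction produced the scanner files. The deposited processed signal is a background-corrected intensity per spot, per the file headers. The deposited value table holds log2 values, matched by correlation to quantile-scaled scanner signals; its scale and centring are not given in the sources used here, its column medians lay between -0.03 and 0.04, and the columns of control replicates 1, 3 and 4 matched scanner arrays 4, 1 and 3.

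Here log2 intensity minus the array's 75th percentile was fitted with limma 3.58.1 in R 4.3.3 (3 group means, 12 arrays, 9 residual degrees of freedom). All adjusted p-values of single genes are limma's, Benjamini-Hochberg adjusted over 13176 genes, and calls use adjusted p under 0.05. Control spots were left out, spots of a probe averaged, the brightest probe taken per gene, and a probe kept when well above background on all arrays of a group with at least 3 usable arrays. Accessions were matched to RefSeq symbols for 27509 probes. Of 10 spike-in probes 7 were used, and only within 1 slide, since spike-ins differed by 2.55 (log2) between slides. Arrays have no depth; their number limits the precision. The fit was tested on simulated data. The p-values rest on the spread among the 12 cultures or animals, which the labels do not tell apart.

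Same-numbered arrays deviated together in emodin against LPS_IFNg (correlations 0.15 to 0.28), not in LPS_IFNg against control (-0.14 to 0.14) or emodin against control (-0.19 to 0.05). The members and lists were chosen with earlier results of these data known. Some genes are counted but not reported singly here. Named genes were 30 listed by role, the 6 largest called rises and falls without overlap and the 4 furthest from the canonical mean in each comparison, and up to 4 genes per list with the largest called change; genes of the stalk, subunit and departure counts were named after their values were seen. Alternatives were quantile scaling, the percentile over detected probes, normexp background correction, no dim-probe filter, probes detected on all 12 arrays, other probes, no saturated spots, the value table, the replicate block, a fit on 8 arrays, and each array left out. normexp used the median spot signal in place of the mean, which was not used here.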

Additional observations from a re-analysis of the deposited data

Results flagged for a closer look

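In 8 of 132 sets of 4 arrays checked, 1 array lay far from the other 3, and chance flags about 1 in 20 such sets. In control, replicate 2 was high for Rps27 (8.97, the next array 8.61) and for Rpl5 (7.19, the next 6.56), and replicate 4 was low for Rpl10 (9.29, the next 9.58). With LPS_IFNg, replicate 1 was high for Rpl7l1 (1.32, the next 1.08). With LPS_IFNg_emodin, replicate 2 was low for Rpl13a (8.52, the next 8.64), Rpl28 (7.66, the next 7.91) and Rps4x (7.74, the next 7.81), and replicate 1 was high for Rpl24 (9.93, the next 9.61). All are log2 levels relative to the array's 75th percentile.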

How the results depend on the processing

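For emodin against LPS_IFNg and for LPS_IFNg against control, the sign of the members' median change held under every alternative tried. Relative to the spike-ins, 68 of the 86 genes were not called with emodin against LPS_IFNg, and some turned. The median change from control to emodin turned with scaling, and the cause was not tested. For LPS_IFNg against control, 69 genes fell after quantile scaling (median -0.46) and 69 in the value table (median -0.47), and 4 rose with the percentile over detected probes. Rpl23 turned to -0.0677 with the mean of its probes and -0.29 with the lowest probe. For emodin against LPS_IFNg, spike-in scaling gave 14 up and 4 down (median 0.11), beside 1223 and 8634 of all genes. The 8 arrays alone also gave 14 and 4. With the replicate block 27 rose and 6 fell (median 0.11), beside 1523 and 9203 of all genes. Without replicate 3 of both groups 5 rose and 3 fell (median 0.0713), beside 1060 and 8010 of all genes. The last 3 settings were chosen after seeing the data. Spike-in scaling also turned Rplp0 (-0.0533), Rplp2 (-0.0872), Rps14 (-0.0299), Rps27l (-0.0466), Rpl11 (-0.0484), Rpl13a (-0.0857), Rpl36al (-0.41) and Rpl38 (-0.00385), of which only Rpl36al was called. The median was 0.36 after quantile scaling and 0.36 in the value table, and in each 66 genes rose and 2 fell. Under normexp 80 rose and 2 fell, beside 5061 and 4336 of all genes. For emodin against control, quantile scaling gave 7 up and 27 down (median -0.092), 7 up and 29 down in the deposited values (median -0.0981), the percentile over detected probes a median of 0.36, and the lowest probe 3 down. The median of all genes moved from -0.04, 0.02 and 0.02 in the 3 comparisons to -0.13, -0.04 and -0.14 after quantile scaling, to -0.16, -0.06 and -0.18 with the detected percentile, and to 0.21, -0.02 and 0.29 without the filter on dim probes.

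Among paralog ratios, the mean of probes gave 0.14 and -0.26 for Rpl22l1 over Rpl22 in the first pair of comparisons, which turned both, and -0.12 in emodin against control, where normexp gave 0.0665. It gave 0.32 for Rps27l over Rps27 with LPS_IFNg and -0.55 for Rpl36al over Rpl36a with emodin against LPS_IFNg. Under normexp Rpl7l1 over Rpl7 was 0.93 with LPS_IFNg and 0.37 in emodin against control, where Rpl36al over Rpl36a was -0.28 and Rps27l over Rps27 0.21.

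With each array left out in turn, 37 to 51 genes fell and 6 to 8 rose with LPS_IFNg, 81 to 82 rose and 1 fell with emodin against LPS_IFNg, and 76 to 84 rose and 1 fell against control. Above the canonical mean stood 16 to 23, 11 to 15 and 7 to 14 genes in the 3 comparisons (7 without emodin replicate 2 and 11 with all arrays), and below it 13 to 19, 13 to 19 and 15 to 17. With the replicate number as a block under 75th percentile scaling, 7 rose and 42 fell with LPS_IFNg, 82 rose and 1 fell with emodin, or 83 and 1 on the 8 arrays; outside spike-in scaling the block moved no count of calls by over 1.5 times. The replicate block left the 6 paralog differences at their values by construction. Of the single-gene changes under other settings, 811 kept their direction and side of the threshold, 46 lost and 55 gained a call, and 10 turned. Leaving out saturated spots changed nothing because no chosen probe was saturated.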
